A study of Mus musculus with 22 samples.

Results

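The enzymes that work against Polycomb repression were followed as 10 genes: Kdm6a, Kdm6b, Kmt2a, Kmt2b, Kmt2c, Kmt2d, Setd1a, Setd1b, Bap1 and Nsd1. They were taken by symbol from a table of 55367 gene symbols counted in mouse RNA-seq libraries. All 10 passed the filter on low counts, as did 17547 genes in the whole table, and a member held 347 to 10436 estimated counts in a library. Changes are log2 fold changes of the first-named group over the second, from edgeR's quasi-likelihood test, and a gene was called where its Benjamini-Hochberg p, adjusted over all tested genes of the comparison, was below 0.05.

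Polycomb complex PRC2, with Ezh2 as its main methyltransferase, places the H3K27me3 mark on silent developmental genes, and PRC1 adds ubiquitin to histone H2A there. The genes followed here encode enzymes on the other side. Kdm6a (UTX) and Kdm6b (JMJD3) are demethylases of H3K27. The Kmt2 and Setd1 enzymes methylate H3K4 within COMPASS complexes and descend from the families of fly Trithorax, Trr and Set1. Bap1 removes the ubiquitin that PRC1 adds, and Nsd1 methylates H3K36, a mark next to which PRC2 works poorly.

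The 22 libraries fell into 10 groups of mouse embryonic stem cells (ESCs) and stem cells of the primitive endoderm (PrE), the layer of the early embryo that goes on to form yolk sac. EPZ_iPrE1 and EPZ_iPrE2 (n = 2 each) were wild-type E14 lines obtained from ESCs with EPZ-6438, an EZH2 inhibitor, and kept in PrE stem cell medium, and C57_PrESC (n = 2) were wild-type C57 PrE stem cells in that medium. KO10_SL (n = 3) was an Ezh2-null clone of E14 cells in serum and LIF, KO10_SL_rescued (n = 2) the same clone with Ezh2 put back, and KO10_S2iL (n = 2) the clone in serum and LIF with 2i, the inhibitor pair that blocks MEK and GSK3. Wild-type E14 cells with 2i were TG2A_S2iL (n = 2), and those in serum and LIF came as 2 sets, E14_ESC (n = 3) and TG2A_ESC (n = 2). The TG2A titles also carry the letters NG and PB, which are not explained in the labels, and the labels do not say which set goes with the knockout. Wild-type C57 ESCs with LIF were C57_ESC (n = 2). The knockout and its rescue rest on 1 clone, and each EPZ label on 1 line. The labels do not say whether libraries of a group came from separate cultures, so the p-values measure only the spread between these libraries. Cells were measured in bulk, so fewer cells of a type and less RNA per cell cannot be told apart.

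Sequencing depth lay between 13.6 M and 26.3 M estimated counts per library. Ezh2 stood at 0.0813, 0.0409 and 0.0424 CPM (counts per M counts of the scaled library) in KO10_SL and at 0.302 and 0 CPM in KO10_S2iL, against 173, 181 and 184 CPM in E14_ESC and 222 and 214 CPM in TG2A_S2iL. In the rescued cells it reached 495 and 533 CPM, above the wild-type libraries. A sum over 6 PrE markers (Gata6, Gata4, Sox17, Sox7, Pdgfra and Foxa2) was 1291 to 1845 CPM in the PrE lines and 3.21 to 63.2 CPM in wild-type ESCs. The same sum was 125 to 157 CPM in KO10_SL, against 3.21 to 4.79 CPM in E14_ESC. The sum over 6 ESC markers was 558 to 1144 CPM in the PrE lines and 2170 to 4582 CPM in the ESC groups. A sum over 4 Y-linked genes was 443 and 384 CPM in C57_PrESC but 0.159 and 5.05 CPM in C57_ESC, and whether these lines come from different animals is not stated. A sum over 8 fibroblast markers differed between replicates, at 28.2 and 1907 CPM in C57_PrESC and at 20.9 and 323 CPM in C57_ESC, and 7.7 to 262 CPM elsewhere.

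The promoters of 4 members are shown because their genes carry the largest changes of the results: Kmt2a and Kmt2d in the knockout, Kmt2c in the PrE lines and Bap1 in the second EPZ line. Each window holds the 250 bases before the RefSeq start on the GRCm38.p6 build, read 5′ to 3′ on the strand of the gene, and capitals mark the GC box GGGCGG, bound by Sp1-family factors, on either strand, or in Bap1 also the E-box CACGTG.
Kmt2a: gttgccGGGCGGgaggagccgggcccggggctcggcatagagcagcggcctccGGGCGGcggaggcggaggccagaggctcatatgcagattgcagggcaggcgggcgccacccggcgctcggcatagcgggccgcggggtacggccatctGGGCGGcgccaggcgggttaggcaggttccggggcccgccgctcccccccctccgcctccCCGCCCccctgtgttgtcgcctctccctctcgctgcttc
Kmt2d: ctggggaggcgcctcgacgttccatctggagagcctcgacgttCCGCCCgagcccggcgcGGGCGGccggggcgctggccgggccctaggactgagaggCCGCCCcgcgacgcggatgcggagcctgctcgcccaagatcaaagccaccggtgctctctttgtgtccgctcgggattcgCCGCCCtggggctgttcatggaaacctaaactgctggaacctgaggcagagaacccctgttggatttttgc
Kmt2c: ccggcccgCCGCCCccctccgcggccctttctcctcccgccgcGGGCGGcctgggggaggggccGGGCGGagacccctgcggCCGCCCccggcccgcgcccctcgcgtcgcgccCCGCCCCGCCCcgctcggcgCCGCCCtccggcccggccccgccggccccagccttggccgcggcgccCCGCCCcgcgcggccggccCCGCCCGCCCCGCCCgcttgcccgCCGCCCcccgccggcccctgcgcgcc
Bap1: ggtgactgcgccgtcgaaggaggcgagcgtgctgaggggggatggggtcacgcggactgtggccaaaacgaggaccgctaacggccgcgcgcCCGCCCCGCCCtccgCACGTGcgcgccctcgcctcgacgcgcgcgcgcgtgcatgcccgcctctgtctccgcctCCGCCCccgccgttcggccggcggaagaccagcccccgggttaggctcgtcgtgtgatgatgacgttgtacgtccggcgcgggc
The Kmt2a window spans chr9:44881290-44881539 on the minus strand, the Kmt2d window chr15:98871206-98871455 on the minus strand, the Kmt2c window chr5:25498784-25499033 on the minus strand and the Bap1 window chr14:31251239-31251488 on the plus strand. RefSeq gave a promoter for 6 of the 10 members, the other two being Setd1a and Kdm6a.

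All 4 windows were rich in G, C and CG dinucleotides. The GC box occurred 4 times in the Kmt2a window, 4 times in that of Kmt2d, 12 times in that of Kmt2c and 3 times in that of Bap1, overlapping matches included. It was found in 32.7% of 32851 mouse promoter windows of this length. The Kmt2c window was 91.6% G or C with 48 CG dinucleotides, the Kmt2a window 76.8% with 29, the Bap1 window 74.4% with 43 and the Kmt2d window 67.6% with 26, where the median over all windows was 6 CG. The E-box was found in Bap1 and in Kdm6a, against 6.02% of all windows. The YY1 core AAGATGG was found in Setd1a, against 4.49% of all windows. Neither the CCAAT box (CCAAT, in 33.8% of windows) nor the ETS core (CCGGAAG, in 6.91%) occurred in the 6 member windows, on either strand. These matches describe the letters only.

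The 10 genes lie on 8 chromosomes (GRCm38, GENCODE M21). Kdm6a is X-linked, at chrX:18162575-18279936 on the plus strand, and Kdm6b lies at chr11:69398508-69413675 on the minus strand. Kmt2a spans chr9:44803355-44881296, Kmt2b chr7:30568858-30588726, Kmt2c chr5:25271798-25498783 and Kmt2d chr15:98831669-98871204, all on the minus strand. Setd1a spans chr7:127776670-127800122, Setd1b chr5:123142193-123168629, Bap1 chr14:31251450-31259944 and Nsd1 chr13:55209782-55318325, all on the plus strand.

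Every member had counts in every library. Per kb of merged exon, Bap1 had the highest median level over the libraries, 25.1 CPM per kb, followed by Setd1a at 18.1, Nsd1 at 18.0, Kmt2b at 17.4, Kdm6b at 12.2, Kdm6a at 8.21, Kmt2a at 7.75, Kmt2d at 7.15, Kmt2c at 6.13 and Setd1b at 3.03 CPM per kb. The highest library exceeded the lowest by 1.81-fold for Kmt2b, the steadiest member, by 4.44-fold for Kmt2a and by 5.22-fold for Kmt2c. Kmt2c was highest in the PrE lines, at 293 ± 74.8 CPM in EPZ_iPrE2, 236 ± 82.2 CPM in C57_PrESC and 225 ± 40.5 CPM in EPZ_iPrE1 (SD, n = 2 each), 3 groups whose libraries overlap. Nsd1, by contrast, was highest in C57_ESC, at 456 ± 22.9 CPM (SD, n = 2), and lowest in KO10_SL, at 196 ± 23.0 CPM (SD, n = 3). KO10_SL was the lowest of the 10 groups for 6 members, Kdm6b, Kmt2a, Kmt2b, Kmt2c, Kmt2d and Nsd1. Kdm6a was lowest in KO10_S2iL, at 28.5 ± 0.0656 CPM, and Bap1 in EPZ_iPrE2, at 62.7 ± 6.70 CPM (SD, n = 2 each). E14_ESC was the highest group for Bap1, at 154 ± 4.71 CPM (SD, n = 3). For Kdm6a it stood at 87.2 ± 9.55 CPM (SD, n = 3), level with KO10_SL_rescued at 87.0 ± 3.43 CPM (SD, n = 2), whose libraries lie inside its range.

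**Figure D1:**
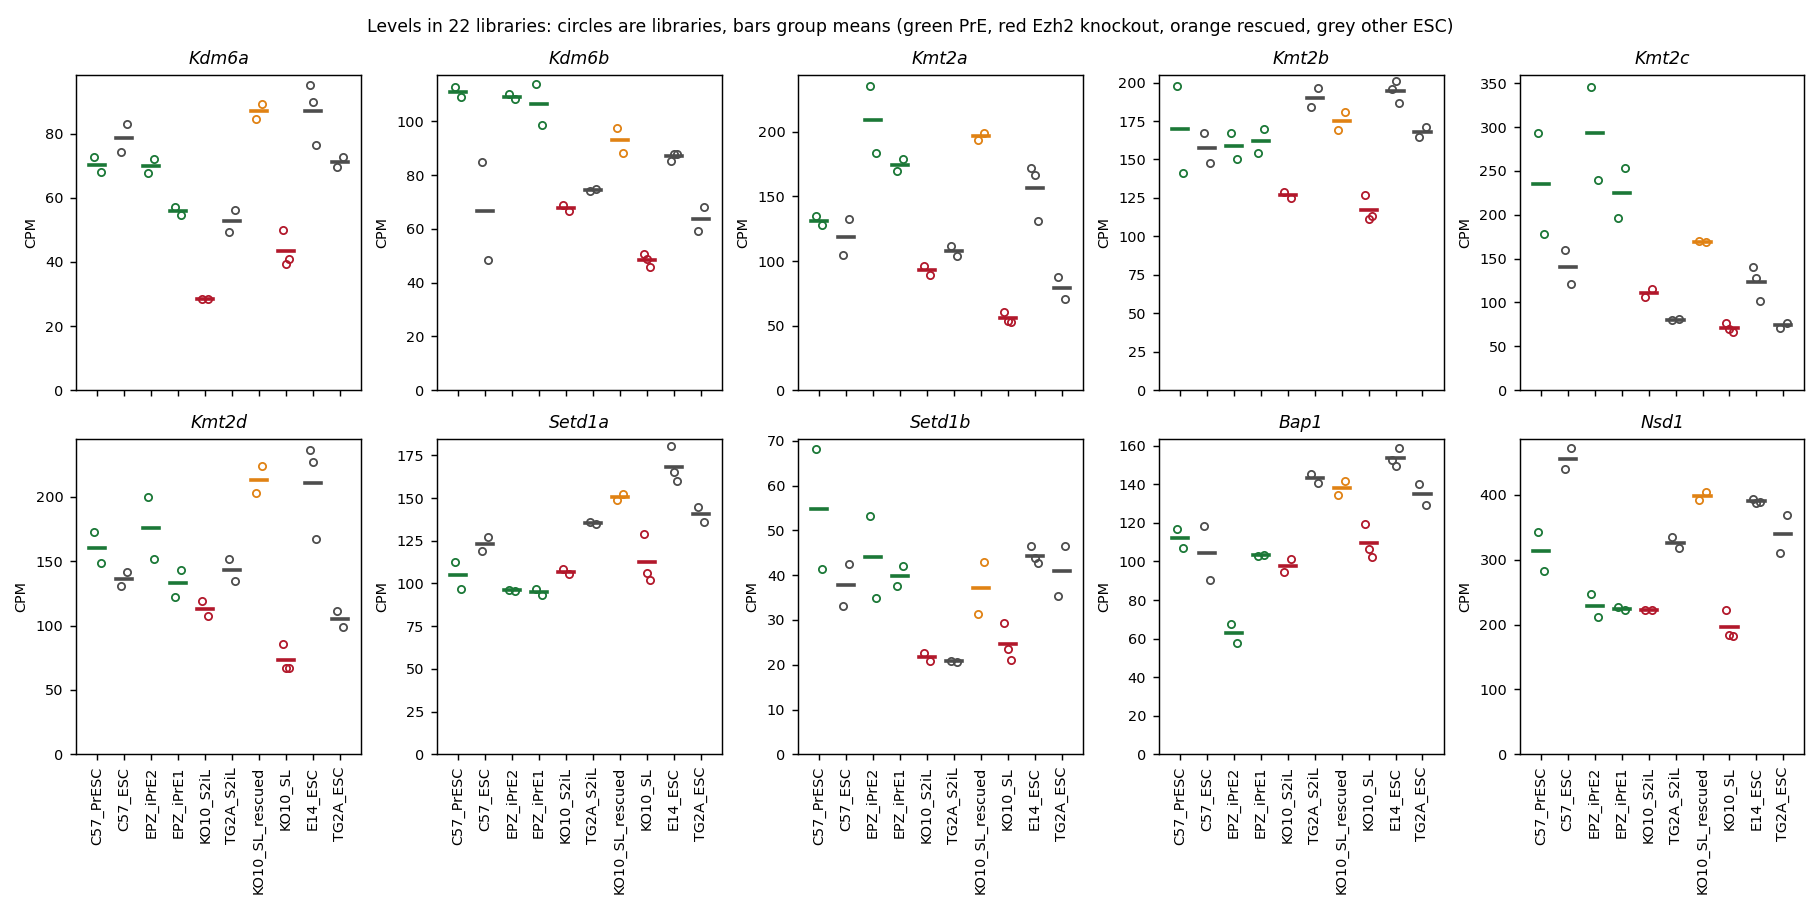
Level of each member in CPM (vertical axis, from 0) in each library (circles) by group, with bars at the group means, green for PrE lines, red for Ezh2 knockout, orange for rescued and grey for other ESCs. The 3 KO10_SL libraries lie below the 3 E14_ESC libraries for all 10 genes, and Kmt2c is highest in the PrE lines.

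The first question was how these enzymes stood when Ezh2 was lost in serum and LIF. All 10 members fell in KO10_SL against E14_ESC, with no overlap between libraries, by 0.49 to 1.52 on the log2 scale. The share of all genes without overlap was not counted, here or in the later comparisons. Of all 17547 genes tested, 22.7% fell and 25.8% rose in the same comparison. The median change was -0.85 over the members and 0.07 over all genes. Together the members made up 0.0821 to 0.0962% of counts in KO10_SL, against 0.153 to 0.175% in E14_ESC. The sum of PrE markers differs between the same groups, and its part in the falls was not tested.

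The H3K27 demethylases were both lower without Ezh2. Kdm6a stood at 49.9, 39.4 and 41.0 CPM in KO10_SL, against 95.2, 89.9 and 76.6 CPM in E14_ESC, and fell by 1.0 (SE 0.0994, adjusted p = 6.81e-07). Kdm6b stood at 50.5, 48.9 and 45.8 CPM in KO10_SL, against 85.2, 88.0 and 87.9 CPM in E14_ESC, and fell by 0.85 (SE 0.138, adjusted p = 9.55e-05). The highest knockout library lay well under the lowest wild-type library for each. Among the Trithorax-type enzymes, Kmt2a (MLL1) had the larger fall. It stood at 60.6, 53.4 and 53.0 CPM in KO10_SL, against 172, 167 and 131 CPM in E14_ESC, and fell by 1.49 (SE 0.126, adjusted p = 1.48e-07), which is 2.81-fold lower. Kmt2b (MLL2), the enzyme that puts H3K4me3 on bivalent promoters in ESCs, stood at 127, 111 and 113 CPM in KO10_SL, against 196, 201 and 187 CPM in E14_ESC, and fell by 0.73 (SE 0.103, adjusted p = 2.43e-05).

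The enhancer-type H3K4 enzymes Kmt2c (MLL3) and Kmt2d (MLL4), which share a complex with Kdm6a, fell to different degrees. Kmt2d stood at 85.8, 67.4 and 67.2 CPM in KO10_SL, against 237, 227 and 167 CPM in E14_ESC, and fell by 1.52 (SE 0.143, adjusted p = 4.23e-07), or 2.86-fold. Kmt2c stood at 76.9, 69.9 and 66.2 CPM in KO10_SL, against 139.9, 128 and 101 CPM in E14_ESC, and fell by 0.79 (SE 0.178, adjusted p = 0.00154). One E14_ESC library was lower than the other two for both genes, yet above every knockout library. The Setd1 enzymes carry much of the general H3K4me3 at active promoters. Setd1a stood at 129, 106 and 102 CPM in KO10_SL, against 180.4, 165 and 159.8 CPM in E14_ESC, and fell by 0.58 (SE 0.0866, adjusted p = 3.89e-05). Its value is uncertain, since 51.8% of its exon bases also belong to Gm49388 on the same strand, and the summed pair fell by 0.65. Setd1b stood at 29.3, 23.6 and 21 CPM in KO10_SL, against 46.5, 43.8 and 42.8 CPM in E14_ESC, and fell by 0.85 (SE 0.195, adjusted p = 0.00182).

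The smallest fall was that of Bap1, the H2A deubiquitinase. Bap1 stood at 119.5, 107 and 102 CPM in KO10_SL, against 153, 149 and 159 CPM in E14_ESC, and fell by 0.49 (SE 0.0944, adjusted p = 0.000452). Nsd1, the H3K36 methyltransferase, stood at 223, 184 and 182 CPM in KO10_SL, against 393, 388 and 389.5 CPM in E14_ESC, and fell by 0.99 (SE 0.0953, adjusted p = 5.11e-07). The 3 wild-type Nsd1 values lie close together and far above all 3 knockout values.

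The size of these falls depended on which wild-type set stood beside the knockout. Against TG2A_ESC, the other wild-type set in serum and LIF, 8 of the 10 members fell. Of the 17547 tested genes, 2482 fell and 2381 rose in that comparison, against 3990 and 4534 with E14_ESC. Kdm6b (-0.40, adjusted p = 0.0631) and Kmt2c (-0.06, adjusted p = 0.864) were not called. Kdm6a fell by 0.71, Nsd1 by 0.79, Setd1b by 0.73, Kmt2b by 0.52, Kmt2d by 0.52, Kmt2a by 0.51, Setd1a by 0.32 and Bap1 by 0.30. The falls of Kmt2a, Kmt2d, Setd1a and Bap1 also differed in size by more than 1.5 times between the wild-type sets.

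The second question was whether the levels came back when Ezh2 was returned to the clone. All 10 members rose in KO10_SL_rescued against KO10_SL, again with no overlap between libraries, where 20.9% of all genes rose and 24.1% fell. The median change was 0.97 over the members and -0.11 over all genes. Kmt2a reached 194 and 199 CPM in the rescued cells, against 60.6, 53.4 and 53.0 CPM in the knockout, and rose by 1.82 (SE 0.136, adjusted p = 8.39e-08). Kmt2d reached 203 and 224 CPM in the rescued cells, against 85.8, 67.4 and 67.2 CPM in the knockout, and rose by 1.54 (SE 0.155, adjusted p = 1.09e-06). Both genes had fallen most in the knockout, and the knockout libraries are shared by the 2 comparisons.

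Kmt2c stood at 169.6 and 169 CPM in the rescued cells, against 76.9, 69.9 and 66.2 CPM in the knockout, and rose by 1.25 (SE 0.195, adjusted p = 7.45e-05). Nsd1 stood at 392 and 405 CPM in the rescued cells, against 223, 184 and 182 CPM in the knockout, and rose by 1.02 (SE 0.104, adjusted p = 1.25e-06). Kdm6a stood at 84.6 and 89.4 CPM in the rescued cells, against 49.9, 39.4 and 41.0 CPM in the knockout, and rose by 1.0 (SE 0.109, adjusted p = 2.38e-06). These 3 genes were at least 2.00-fold higher after rescue. Kdm6b stood at 97.6 and 88.1 CPM in the rescued cells, against 50.5, 48.9 and 45.8 CPM in the knockout, and rose by 0.94 (SE 0.151, adjusted p = 0.000104). The smaller rises were those of Kmt2b (0.58, SE 0.114, adjusted p = 0.000585), Setd1b (0.59, SE 0.215, adjusted p = 0.0339), Setd1a (0.42, SE 0.0958, adjusted p = 0.00184) and Bap1 (0.33, SE 0.105, adjusted p = 0.0157).

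The 2 weakest of these calls rest on single libraries. Setd1b stood at 31.3 and 42.9 CPM in the rescued cells, against 29.3, 23.6 and 21 CPM in the knockout. Its adjusted p was 0.0691 without KO10_SL replicate 2, 0.0939 without KO10_SL replicate 3 and 0.344 without KO10_SL_rescued replicate 2, where the change was 0.35. Bap1 stood at 135 and 142 CPM in the rescued cells, against 119.5, 107 and 102 CPM in the knockout. Without KO10_SL_rescued replicate 2 its change was 0.30 with an adjusted p of 0.109, and with no filter on low counts the adjusted p was 0.0547. With a replicate block, Setd1b had an adjusted p of 0.0814.

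Against E14_ESC, no member of the rescued cells passed the test, where 0.0285% of all genes rose and 0.0798% fell. The fitted differences ran from -0.26 to 0.46, with 95% intervals from -0.72 to 0.88, so differences within those bounds were not excluded. Kmt2c stood at 169.6 and 169 CPM in the rescued cells, against 139.9, 128 and 101 CPM in E14_ESC (difference 0.46, interval 0.05 to 0.88, adjusted p = 0.494). Kmt2a stood at 194 and 199 CPM in the rescued cells, against 172, 167 and 131 CPM in E14_ESC (difference 0.33, interval 0.04 to 0.62, adjusted p = 0.482). These were the 2 members with an unadjusted p below 0.05, their libraries did not overlap, and DESeq2 called 0 members as well. Among all members, 3 lay above E14_ESC without overlap and 3 below. With no filter on low counts Kmt2c was called (0.47, adjusted p = 0.0156). Set against TG2A_ESC, the rescued cells were higher for Kmt2a (1.31, adjusted p = 6.19e-05), Kmt2c (1.20, adjusted p = 0.0013), Kmt2d (1.02, adjusted p = 0.000731) and Kdm6b (0.54, adjusted p = 0.0288). Over all genes, 1754 were higher and 2044 lower in that comparison.

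**Figure D2:**
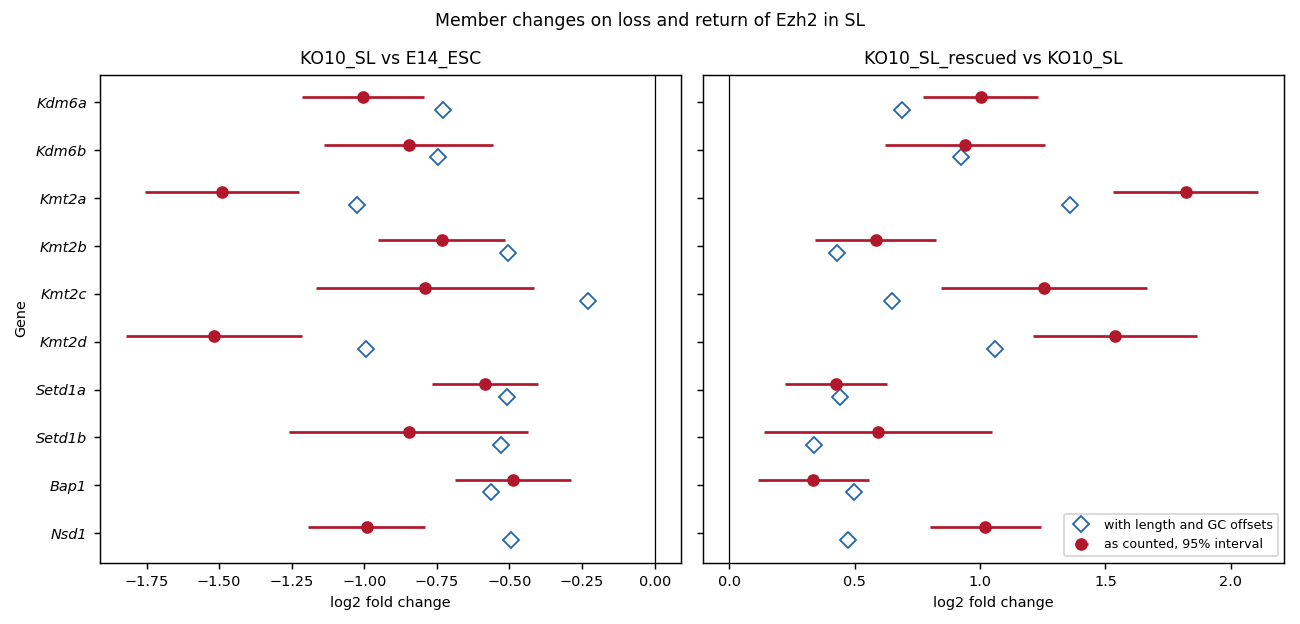
Log2 fold change of each member in KO10_SL against E14_ESC (left) and KO10_SL_rescued against KO10_SL (right), with red circles and 95% intervals from the fit to the counts and blue diamonds from the fit that allows for exon length and GC content. All 10 circles lie below 0 on the left and above 0 on the right, and the diamonds of Kmt2c and Nsd1 lie much nearer to 0.

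The member transcripts are long, and exon length moved with both comparisons across the genome. Merged exons measured 4.68 kb for Bap1, 6.80 kb for Setd1a, 6.95 kb for Kdm6b, 8.38 kb for Kdm6a and 9.60 to 20.3 kb for the other 6 members, which all fall in the longest decile of tested genes (9.32 to 123 kb, 1718 genes). In KO10_SL against E14_ESC, 52.4% of genes in that decile fell and 10.7% rose (median -0.47), whereas 7.57% of the shortest decile fell (median 0.57). In KO10_SL_rescued against KO10_SL, 51.3% of the longest decile rose (median 0.50). Genes of at least 8 kb took 14.7 to 15.7% of counts in KO10_SL, 22 to 22.1% in the rescued cells, 20.5 to 22.3% in E14_ESC and 16.2 to 17.5% in TG2A_ESC. In the deciles of Bap1, Setd1a with Kdm6b, and Kdm6a, the medians in KO10_SL were 0.05, -0.17 and -0.26.

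The falls of Kmt2a and Kmt2d were the largest among the members also when length was allowed for, while that of Kmt2c was not called. The fit was then made to allow for a smooth trend of each library with exon length, a step chosen after the data were seen. With it 8 members fell in KO10_SL against E14_ESC, and likewise 8 with length and GC content together. Over all genes, 4012 fell and 3373 rose with length, and 4055 fell and 3425 rose with length and GC. The fit to the counts had 3990 genes that fell and 4534 that rose. Kmt2a fell by 0.96 with length and by 1.02 with length and GC, Kmt2d by 0.91 and by 0.99, Kdm6a by 0.78 and by 0.73, and Kdm6b by 0.70 and by 0.75. Nsd1 fell by 0.46 and by 0.49, and Bap1, which is in the middle of the length range, by 0.51 and by 0.56. Kmt2b fell by 0.45 and by 0.50, and Setd1a by 0.45 and by 0.51. Kmt2c (-0.18, adjusted p = 0.528 with length and -0.23, adjusted p = 0.41 with both) and Setd1b (-0.47, adjusted p = 0.0951 with length and -0.53, adjusted p = 0.0723 with both) were no longer called.

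For the rescue, 7 members rose with length and 9 with length and GC. Over all genes, 3723 rose and 2906 fell with length, and 3703 rose and 2888 fell with length and GC. The fit to the counts had 3671 genes that rose and 4225 that fell. Kmt2a rose by 1.26 and 1.36, Kmt2d by 0.89 and 1.06, and Nsd1 by 0.43 and 0.47. The call was lost in both fits for Setd1b (0.19, adjusted p = 0.557, and 0.34, adjusted p = 0.317). With length alone it was lost for Kmt2b (0.29, adjusted p = 0.134) and Kmt2c (0.59, adjusted p = 0.0598). Whether the shift in long transcripts arose in the cells or in library making was not tested.

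**Figure D3:**
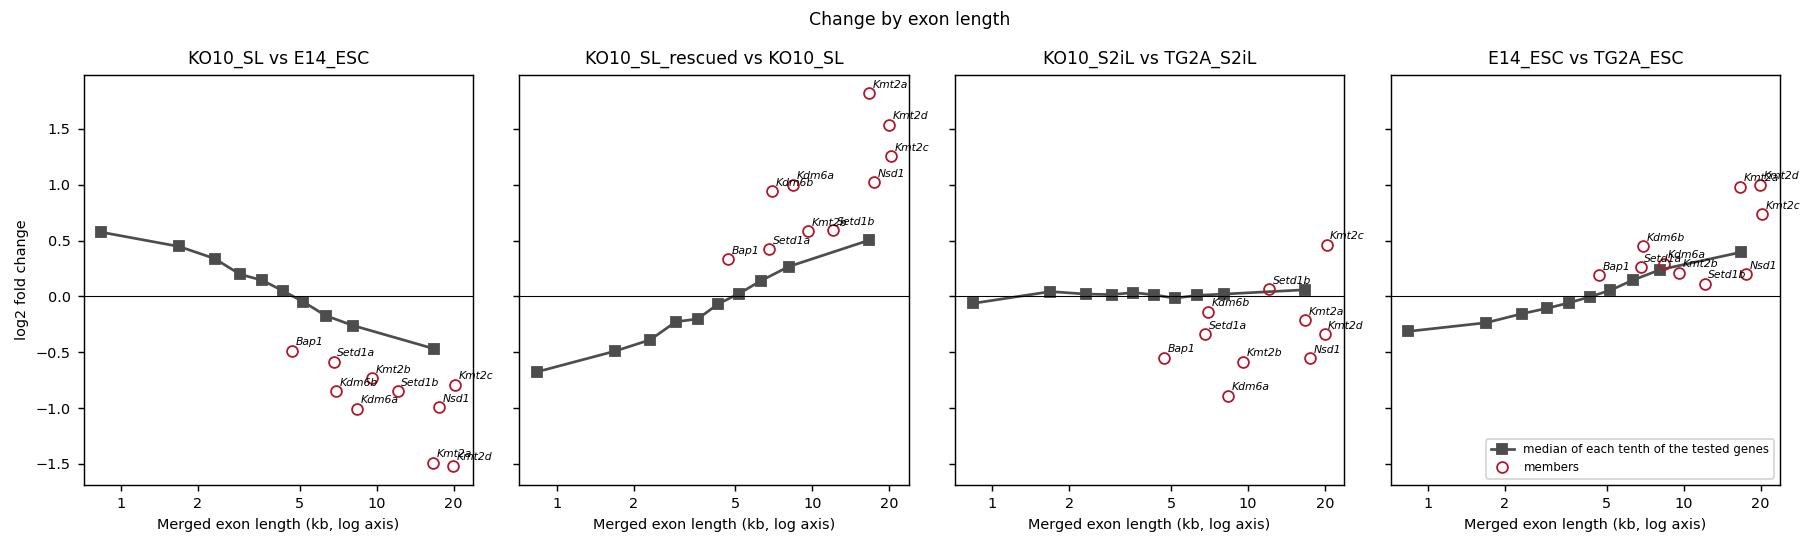
Log2 fold change (vertical axis) against merged exon length in kb (log axis) in 4 comparisons, with squares at the median of each decile of the tested genes by length and circles at the 10 members. Long genes are lower in KO10_SL and higher in the rescued cells and in E14_ESC against TG2A_ESC, while in KO10_S2iL against TG2A_S2iL the decile medians stay between -0.06 and 0.06.

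With 2i the knockout was compared with wild-type cells of the TG2A set in the same medium, and there exon length hardly moved with the change: the median of the longest decile of genes was 0.06 and that of the shortest -0.06. Of the members, 5 fell and none rose, where 14.3% of all genes fell and 15.7% rose. Kdm6a had the largest fall, with 28.6 and 28.5 CPM in KO10_S2iL, against 49.5 and 56.2 CPM in TG2A_S2iL (-0.89, SE 0.124, adjusted p = 0.000102). Kmt2b stood at 129 and 125 CPM in KO10_S2iL, against 184 and 196 CPM in TG2A_S2iL (-0.58, SE 0.127, adjusted p = 0.00276). Nsd1 stood at 222 and 222 CPM in KO10_S2iL, against 335 and 317 CPM in TG2A_S2iL (-0.56, SE 0.116, adjusted p = 0.00214). Replicates of these 3 genes lie close together and the groups do not overlap.

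Bap1 stood at 94.4 and 101 CPM in KO10_S2iL, against 146 and 140.5 CPM in TG2A_S2iL (-0.55, SE 0.116, adjusted p = 0.00237). Setd1a stood at 108 and 105 CPM in KO10_S2iL, against 136 and 135 CPM in TG2A_S2iL (-0.34, SE 0.106, adjusted p = 0.0235). Neither pair of groups overlaps, but single libraries decide both calls. Setd1a lost its call without either KO10_S2iL library (adjusted p = 0.133 without replicate 1 and 0.188 without replicate 2) and without either TG2A_S2iL library (0.0991 and 0.105). It also lost it with another scaling (0.0518) and with no filter on low counts (0.177). Bap1 lost its call without KO10_S2iL replicate 1 (adjusted p = 0.0557). With length and GC allowed for, the falls of Kmt2b (-0.88) and Setd1a (-0.59) were larger, but the median over all genes also moved, from 0.01 to -0.10. The PrE marker sum was 32.3 to 36.8 CPM in KO10_S2iL, against 4.73 to 5.52 CPM in TG2A_S2iL, and its part was not tested.

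The genes with the deepest falls in serum and LIF, Kmt2a and Kmt2d, were not called with 2i in the fit to the counts of all groups, but were in other fits. Kmt2a stood at 96.5 and 89.4 CPM in KO10_S2iL, against 112 and 104 CPM in TG2A_S2iL (difference -0.21, interval -0.53 to 0.11, adjusted p = 0.319). Kmt2d stood at 119.2 and 107 CPM in KO10_S2iL, against 152 and 135 CPM in TG2A_S2iL (difference -0.34, interval -0.70 to 0.02, adjusted p = 0.151). Kmt2c ran the other way, at 107 and 115 CPM in KO10_S2iL, against 79.9 and 80.9 CPM in TG2A_S2iL (difference 0.46, interval 0.00 to 0.92, adjusted p = 0.12). Kmt2a was called lower with length and GC allowed for (-0.43, adjusted p = 0.0323) and with only the compared groups in the fit (-0.20, adjusted p = 0.0128). Kmt2d was called lower with length (-0.49, adjusted p = 0.0462), with length and GC (-0.62, adjusted p = 0.0212) and with only the compared groups (-0.33, adjusted p = 0.00154). The length fit and the length and GC fit lowered the change of every member. They moved the median over all genes from 0.01 to -0.10 as well, and how far their added calls reflect length was not tested. Kmt2c was called higher with no filter on low counts (0.52, adjusted p = 0.00195) and with only the compared groups (0.47, adjusted p = 2.04e-05). In 8 members both knockout libraries lay below those of the wild type, and in Kmt2c and Setd1b both lay above, a separation that was not counted over all genes.

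A direct test of the difference between media, the knockout change with 2i less that in serum and LIF with TG2A cells as wild type in each, called no member, where 0.838% of all genes were higher and 1.12% lower. The fitted differences ran from -0.25 to 0.79, with intervals from -0.58 to 1.48. Setd1b had the largest difference, 0.79 (interval 0.11 to 1.48, adjusted p = 0.222), and was the 1 member with an unadjusted p below 0.05. DESeq2 called 0 members. Setd1b was called with no filter (0.81, adjusted p = 0.0291) and with only the compared groups in the fit (0.80, adjusted p = 0.0462), where Kmt2c was called too (0.53, adjusted p = 0.0243). With E14_ESC as the wild type in serum and LIF instead, 2201 of the 17547 tested genes were higher and 2356 lower. With TG2A_ESC these counts were 147 and 196. With E14_ESC 6 members were called, all higher. These were Kmt2a (1.28, adjusted p = 0.000232), Kmt2c (1.26, adjusted p = 0.00363), Kmt2d (1.18, adjusted p = 0.00109), Setd1b (0.91, adjusted p = 0.0408), Kdm6b (0.71, adjusted p = 0.0235) and Nsd1 (0.44, adjusted p = 0.0407).

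In wild-type cells the 2i medium went with lower Setd1b and Kdm6a and higher Kmt2a. In TG2A_S2iL against TG2A_ESC, 1 member rose and 2 fell, where 11.7% of all genes rose and 11.6% fell, shares near those of the members. Setd1b stood at 20.8 and 20.7 CPM in TG2A_S2iL, against 35.4 and 46.4 CPM in TG2A_ESC (-0.98, SE 0.242, adjusted p = 0.00808). Kdm6a stood at 49.5 and 56.2 CPM in TG2A_S2iL, against 69.6 and 72.8 CPM in TG2A_ESC (-0.43, SE 0.121, adjusted p = 0.0169). Kmt2a stood at 112 and 104 CPM in TG2A_S2iL, against 87.8 and 70.5 CPM in TG2A_ESC (0.44, SE 0.152, adjusted p = 0.0439). None of the 3 pairs overlaps, but single libraries decide the calls. Without TG2A_ESC replicate 2 all 3 were lost (Setd1b 0.0786, Kdm6a 0.0775, and Kmt2a 0.33 at a change of 0.28). All 3 were likewise lost without TG2A_S2iL replicate 1 (Setd1b 0.0564, Kdm6a 0.157, Kmt2a 0.203), and without TG2A_S2iL replicate 2 Setd1b (0.0584) and Kmt2a (0.0988) were. Kmt2d was called higher with no filter (0.45, adjusted p = 0.0101), with a replicate block (0.45, adjusted p = 0.0379) and with only the compared groups (0.44, adjusted p = 0.0416), the last of which ended the call of Kmt2a (0.0637). Allowing for exon length, the Kmt2a change was 0.20 (adjusted p = 0.349).

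In the knockout, 2i went with higher levels of 4 members and a lower level of Kdm6a. Of all genes 19.6% rose and 17.3% fell in KO10_S2iL against KO10_SL. Kmt2a stood at 96.5 and 89.4 CPM in KO10_S2iL, against 60.6, 53.4 and 53.0 CPM in KO10_SL (0.74, SE 0.137, adjusted p = 0.000532). Kmt2c stood at 107 and 115 CPM in KO10_S2iL, against 76.9, 69.9 and 66.2 CPM in KO10_SL (0.64, SE 0.196, adjusted p = 0.0167). Kmt2d stood at 119.2 and 107 CPM in KO10_S2iL, against 85.8, 67.4 and 67.2 CPM in KO10_SL (0.62, SE 0.155, adjusted p = 0.00492). None of these overlaps, and Kdm6b rose too (0.48, SE 0.152, adjusted p = 0.02). Kdm6a ran the other way, at 28.6 and 28.5 CPM in KO10_S2iL, against 49.9, 39.4 and 41.0 CPM in KO10_SL (-0.61, SE 0.114, adjusted p = 0.000609). It fell in both genotypes with 2i, and KO10_S2iL held its lowest level of all groups.

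The 4 rises were not called once exon length was allowed for. In this comparison the longest decile of genes had a median of 0.43. With the length fit, Kmt2a changed by 0.27 (adjusted p = 0.132), Kmt2d by 0.12 (0.626), Kmt2c by 0.13 (0.726) and Kdm6b by 0.25 (0.281). The fall of Kdm6a was larger in that fit, at -0.90 (adjusted p = 2.8e-05). Single libraries also decided 2 of the calls. Kdm6b lost its call without KO10_SL replicate 3 (adjusted p = 0.0644), KO10_S2iL replicate 1 (0.0936) or KO10_S2iL replicate 2 (0.0681). Kmt2c lost its call without KO10_SL replicate 3 (0.0563) or KO10_S2iL replicate 2 (0.0891).

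The 2 wild-type sets in serum and LIF were not alike in these genes. In E14_ESC against TG2A_ESC, 4 members rose and none fell, where 11.2% of all genes rose and 13.1% fell. In 9 of the 10 members every E14_ESC library lay above every TG2A_ESC library, a separation that was not counted over all genes. Kmt2d stood at 237, 227 and 167 CPM in E14_ESC, against 112 and 98.6 CPM in TG2A_ESC (1.0, SE 0.161, adjusted p = 0.000397). Kmt2a stood at 172, 167 and 131 CPM in E14_ESC, against 87.8 and 70.5 CPM in TG2A_ESC (0.98, SE 0.142, adjusted p = 0.000169). Kmt2c (0.74, SE 0.202, adjusted p = 0.0143) and Kdm6b (0.45, SE 0.155, adjusted p = 0.0436) rose as well. In Kmt2a the sets, which share their labelled genotype and medium, differed by 0.98, where KO10_SL and TG2A_ESC differed by -0.51.

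The longest decile of genes had a median of 0.40 in this comparison of wild-type sets and the shortest -0.31. With the length fit Kmt2a alone stayed called (0.52, adjusted p = 0.0134), and Kmt2d (0.49, adjusted p = 0.0527), Kmt2c (0.22, 0.594) and Kdm6b (0.26, 0.317) were not. Kdm6b lost its call without any one of the 5 libraries, with adjusted p of 0.22 and 0.0978 without TG2A_ESC replicates 1 and 2, and 0.0763, 0.0954 and 0.0836 without E14_ESC replicates 1, 2 and 3. Kmt2c lost its call without TG2A_ESC replicate 1 (0.0778), TG2A_ESC replicate 2 (0.0806) or E14_ESC replicate 1 (0.0558).

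The next question was how the enzymes stood in PrE stem cells. In the E14-derived lines Kmt2c, Kmt2a and Kdm6b rose, and Setd1a, Bap1 and Nsd1 fell. In EPZ_iPrE1 against TG2A_ESC, 3 members rose and 4 fell, where 27.9% of all genes rose and 32.2% fell. In EPZ_iPrE2 against TG2A_ESC, 4 rose and 3 fell, where 28.8% of all genes rose and 33.4% fell. Both counts of members are near this background. The 2 comparisons share the TG2A_ESC libraries. E14_ESC, the other wild-type set, was not run as the baseline here. By level, Kmt2c and Kdm6b in E14_ESC, at 123 ± 19.6 and 87.0 ± 1.62 CPM (SD, n = 3), lay below every EPZ library. Kmt2a there, at 156 ± 22.5 CPM, overlapped EPZ_iPrE1 and lay below EPZ_iPrE2. Kmt2d, at 210 ± 37.6 CPM, lay above EPZ_iPrE1 and overlapped EPZ_iPrE2. Setd1a, Bap1 and Nsd1 in E14_ESC lay above every EPZ library.

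Kmt2c had the largest rise. It stood at 196 and 254 CPM in EPZ_iPrE1 and 346 and 240.1 CPM in EPZ_iPrE2, against 71.1 and 76.5 CPM in TG2A_ESC, and rose by 1.61 (SE 0.221, adjusted p = 8.93e-06) in EPZ_iPrE1 and by 1.99 (SE 0.224, adjusted p = 8.59e-07) in EPZ_iPrE2. That is 3.05-fold and 3.97-fold. Kmt2a stood at 169.6 and 179 CPM in EPZ_iPrE1 and 235 and 184 CPM in EPZ_iPrE2, against 87.8 and 70.5 CPM in TG2A_ESC, and rose by 1.14 (SE 0.153, adjusted p = 6.75e-06) and by 1.40 (SE 0.154, adjusted p = 6.3e-07). Every PrE library of these 2 genes lay above every TG2A_ESC library. Kdm6b stood at 114 and 98.8 CPM in EPZ_iPrE1 and 110.2 and 108 CPM in EPZ_iPrE2, against 59.1 and 68.3 CPM in TG2A_ESC, and rose by 0.74 (SE 0.169, adjusted p = 0.00118) and by 0.78 (SE 0.169, adjusted p = 0.000742).

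Kmt2d stood at 122 and 143 CPM in EPZ_iPrE1 and 200.2 and 152 CPM in EPZ_iPrE2, against 112 and 98.6 CPM in TG2A_ESC. It rose by 0.74 in EPZ_iPrE2 (SE 0.173, adjusted p = 0.00131) and was not called in EPZ_iPrE1 (0.34, interval -0.03 to 0.70, adjusted p = 0.102). The longest decile of genes had a median of 0.31 in EPZ_iPrE1 and 0.35 in EPZ_iPrE2. With the length fit Kmt2c rose by 1.34 and 1.68, Kmt2a by 0.87 and 1.10, Kdm6b by 0.59 and 0.63, and Kmt2d by 0.44 in EPZ_iPrE2, all still called (for Kmt2d, adjusted p = 0.0418).

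Among the members that fell, Bap1 differed between the lines. It stood at 103 and 103 CPM in EPZ_iPrE1 and 67.4 and 58.0 CPM in EPZ_iPrE2, against 140.0 and 129 CPM in TG2A_ESC, and fell by 0.39 (SE 0.116, adjusted p = 0.00869) in EPZ_iPrE1 and by 1.10 (SE 0.118, adjusted p = 4.77e-07) in EPZ_iPrE2. Both EPZ_iPrE2 libraries lie below all other libraries of the table. Nsd1 stood at 227 and 222 CPM in EPZ_iPrE1 and 247 and 211 CPM in EPZ_iPrE2, against 311 and 368 CPM in TG2A_ESC, and fell by 0.60 (SE 0.116, adjusted p = 0.000298) and by 0.57 (SE 0.116, adjusted p = 0.000439). Setd1a stood at 97.0 and 93.3 CPM in EPZ_iPrE1 and 96.2 and 95.7 CPM in EPZ_iPrE2, against 145 and 136 CPM in TG2A_ESC, and fell by 0.56 (SE 0.107, adjusted p = 0.00024) and by 0.55 (SE 0.107, adjusted p = 0.000277). Summed with Gm49388 it fell by 0.58 and 0.59. With the length fit the falls of Nsd1 were larger (-0.88 in EPZ_iPrE1 and -0.88 in EPZ_iPrE2). Nsd1 and Setd1a lie at nearly the same levels in both lines, without overlap with TG2A_ESC.

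Kdm6a fell in EPZ_iPrE1, with 57.3 and 54.8 CPM in EPZ_iPrE1, against 69.6 and 72.8 CPM in TG2A_ESC (-0.35, SE 0.122, adjusted p = 0.0215), but its 67.8 and 72.2 CPM in EPZ_iPrE2 overlapped the ESC values (-0.02, adjusted p = 0.879). With length and GC allowed for, Kdm6a was called lower in EPZ_iPrE2 as well (-0.40, adjusted p = 0.00751). The Kdm6a call in EPZ_iPrE1 was lost without EPZ_iPrE1 replicate 1 (adjusted p = 0.0513), EPZ_iPrE1 replicate 2 (0.101) or TG2A_ESC replicate 2 (0.0674), and with no filter on low counts (0.0671), while with the length fit the fall was larger (-0.55, adjusted p = 0.000968). The Bap1 call in EPZ_iPrE1 was lost without TG2A_ESC replicate 1 (0.0594) and with length and GC (-0.29, adjusted p = 0.0622), while its call in EPZ_iPrE2 stayed under all alternatives run. Kmt2b and Setd1b were called in neither line.

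The EPZ lines were also set against each other. Bap1 was the one member called between them, where 1.75% of all genes were higher and 2.16% lower in EPZ_iPrE2. It was lower in EPZ_iPrE2 by 0.72 (SE 0.118, adjusted p = 0.00173), or 1.64-fold. With only these 4 libraries in the fit, the change was -0.74 but the adjusted p was 0.084. The sum of the Y-linked genes also differed between the lines, at 108 and 116 CPM in EPZ_iPrE2, against 373 and 406 CPM in EPZ_iPrE1. Its relation to the Bap1 difference was not tested.

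In C57 cells, Kdm6b and Kmt2c rose and Nsd1 fell in PrE stem cells, where 27.3% of all genes rose and 33.4% fell. Kdm6b stood at 113 and 109 CPM in C57_PrESC, against 84.7 and 48.3 CPM in C57_ESC (0.74, SE 0.168, adjusted p = 0.00118). Kmt2c stood at 294 and 177 CPM in C57_PrESC, against 160.0 and 121 CPM in C57_ESC (0.74, SE 0.216, adjusted p = 0.00693). Nsd1 stood at 343 and 283 CPM in C57_PrESC, against 439.6 and 472 CPM in C57_ESC (-0.54, SE 0.116, adjusted p = 0.000691). The groups do not overlap for these 3 genes, but replicates lie far apart, Kdm6b in the ESCs and Kmt2c in the PrE stem cells.

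Several choices end these calls. With only the 4 C57 libraries in the fit, which then use their own spread, no member was called (adjusted p = 0.125 for Kdm6b, 0.117 for Kmt2c and 0.052 for Nsd1). Kmt2c lost its call without C57_ESC replicate 2 (0.0799) and without C57_PrESC replicate 1, where its change was 0.36 (0.162). The Kdm6b change was 1.20 without C57_ESC replicate 1 and 0.39 without C57_ESC replicate 2. C57_PrESC replicate 1, with the lower fibroblast sum, had the higher Kmt2c level, and the part of fibroblast RNA or of the Y-linked difference in these changes was not tested. With the length fit Nsd1 was not called (-0.17, adjusted p = 0.377), and 5 members rose, Kmt2c (1.18), Kdm6b (0.89), Setd1b (0.83), Kmt2d (0.65) and Kmt2a (0.51). Over all genes, 5662 rose and 5036 fell with the length fit, against 4784 and 5858 in the fit to the counts. In the fit to the counts, however, the shortest decile of genes had a median of -0.111 and the longest -0.085. The length fit raised the change of every member and moved the median over all genes from -0.09 to 0.05. How far its calls reflect length was not tested.

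Kmt2a rose in the EPZ lines but was not called in C57 PrE stem cells, where it stood at 135 and 128 CPM in C57_PrESC, against 104 and 132 CPM in C57_ESC (difference 0.15, interval -0.17 to 0.47). A test of the difference itself, the mean change of the EPZ lines less the C57 change, called 3 members, where 18.8% of all genes were higher and 16.3% lower. Kmt2a was higher in the EPZ change by 1.12 (SE 0.202, adjusted p = 0.000419) and Kmt2c by 1.05 (SE 0.288, adjusted p = 0.00908). Bap1 was lower in the EPZ change (difference -0.85, SE 0.153, adjusted p = 0.000431), with 117 and 107 CPM in C57_PrESC, against 118 and 90.3 CPM in C57_ESC. Kdm6b and Nsd1 were not called in this contrast (difference 0.02, interval -0.45 to 0.49, and -0.04, interval -0.36 to 0.28), but neither value is firm. The Kdm6b difference was -0.44 (adjusted p = 0.0201) without C57_ESC replicate 1 and 0.37 (adjusted p = 0.0465) without C57_ESC replicate 2. The Nsd1 difference was -0.72 (adjusted p = 0.0133) with the length fit and -0.70 (adjusted p = 0.0149) with length and GC.

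The difference in Bap1 was about as large with the length fit (-0.97, adjusted p = 0.000343), whereas those in Kmt2a (0.48, adjusted p = 0.0654) and Kmt2c (0.33, adjusted p = 0.523) were not called in it. With length and GC the Kmt2a difference was 0.59 (adjusted p = 0.0286). The median of the longest decile of genes was 0.43 in this contrast. With only these groups in the fit Kmt2c had an adjusted p of 0.0823. The E14 baseline of the contrast is TG2A_ESC alone, and the contrast was not run with E14_ESC. Against TG2A_ESC, E14_ESC was higher by 0.98 for Kmt2a and by 0.74 for Kmt2c, and was not called for Bap1 (0.19, adjusted p = 0.217).

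**Figure D4:**
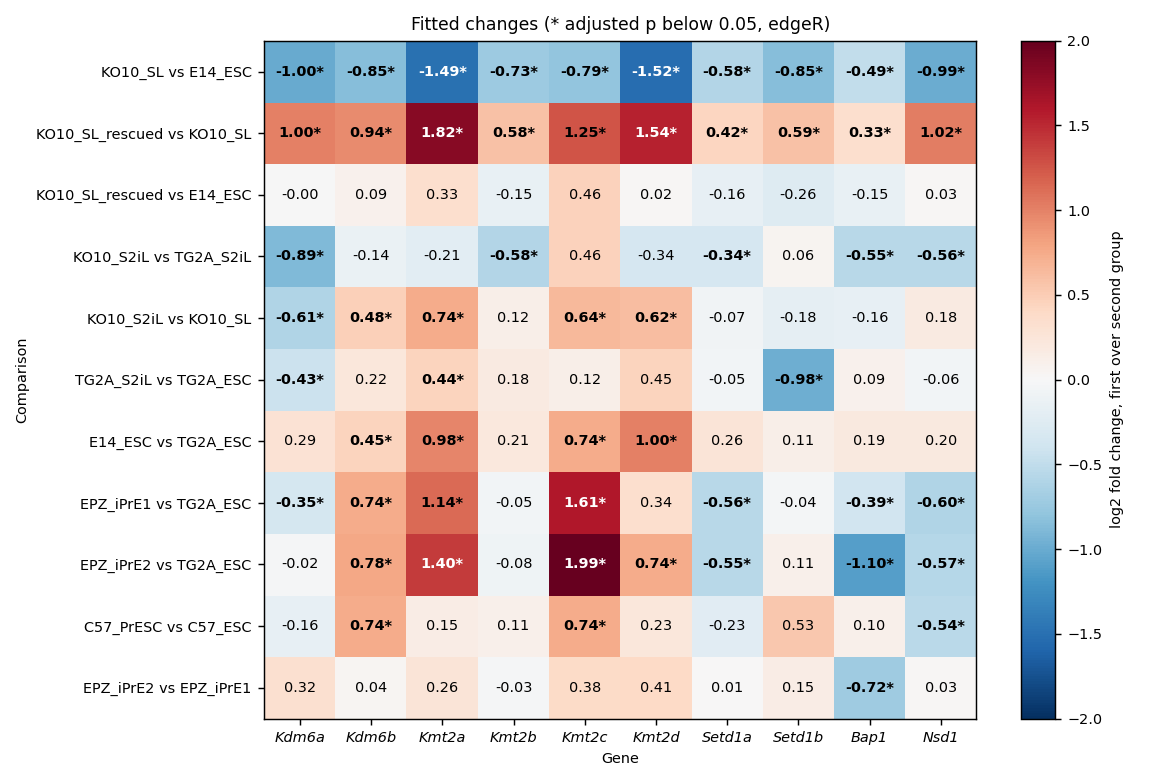
Fitted log2 fold change of each member (columns) in 11 comparisons (one per line, first-named group over second), blue for lower and red for higher, with an asterisk and bold type where the edgeR adjusted p is below 0.05. The 10 members are lower in KO10_SL against E14_ESC and higher in KO10_SL_rescued against KO10_SL. Kmt2c has the largest rise of the members in each EPZ line against TG2A_ESC.

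Other genes of the pathway were read from lists, described by counts only. They come from the fit to the counts, with no allowance for exon length. Of the longest decile of genes, 52.4% fell in KO10_SL against E14_ESC. Of 10 partners of Bap1, such as the Asxl and Foxk proteins, 7 fell and none rose in KO10_SL against E14_ESC (median -0.63, beside 0.07 over all genes, of which 22.7% fell). Of 9 other enzymes that act on or beside the Polycomb marks, 7 fell and none rose (median -0.73), led by Ep300, an acetyltransferase of H3K27 (-1.55, SE 0.110, adjusted p = 3.16e-08). All 4 H3K4 demethylases fell (median -0.47). Of 10 subunits of BAF, the Trithorax-group remodeller, 8 fell and 2 rose (median -0.72), with Pbrm1 lowest (-1.39, SE 0.106, adjusted p = 5.66e-08). The ATPase Smarca2 ran the other way, at 4.96, 6.33 and 7.33 CPM in KO10_SL, against 1.20, 1.37 and 1.08 CPM in E14_ESC (2.36, SE 0.292, adjusted p = 6.4e-06).

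The shared subunits of COMPASS were divided. Of 11 such genes 2 rose and 5 fell in KO10_SL against E14_ESC, with a median of -0.04. One of the rises was Pagr1a, a subunit found with Kmt2c and Kmt2d, at 3.32, 3.37 and 0.253 CPM in KO10_SL, against 0.0629, 0 and 0.130 CPM in E14_ESC. Its counts were near 0 in many libraries and uneven within groups, so no fold is given.

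After rescue 5 of the 11 COMPASS subunits rose and 3 fell, where 20.9% of all genes rose and 24.1% fell. In that comparison 9 of 10 Bap1 partners, 7 of 9 other histone enzymes, all 4 H3K4 demethylases and 8 of 10 BAF genes rose, with Arid2 (1.70, SE 0.157, adjusted p = 4.92e-07) and the H3K36 methyltransferase Ash1l (1.64, SE 0.134, adjusted p = 1.61e-07) highest. Smarca2 fell by 2.58 (SE 0.352, adjusted p = 2.24e-05). These counts share the KO10_SL libraries with those of the knockout. They also make no allowance for exon length, where 51.3% of the longest decile of genes rose after rescue.

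In KO10_S2iL against TG2A_S2iL, 7 of the 11 COMPASS subunits fell and none rose, where 14.3% of all genes fell and 15.7% rose, Dpy30 by 0.75 (SE 0.129, adjusted p = 0.000496), and none of the 9 other histone enzymes was called. Smarca2 rose by 1.19 (SE 0.361, adjusted p = 0.0208), and Asxl3 stood at 2.26 and 3.05 CPM in KO10_S2iL, against 0.540 and 0.467 CPM in TG2A_S2iL (2.38, SE 0.828, adjusted p = 0.039). In KO10_S2iL against KO10_SL, Ash1l (1.07, SE 0.134, adjusted p = 1.79e-05) and Arid1b (0.97, SE 0.121, adjusted p = 1.66e-05) rose most and Dpy30 fell (-0.85, SE 0.120, adjusted p = 4.66e-05). Dpy30, a core subunit of COMPASS complexes, was thus lower in KO10_S2iL in both comparisons that hold it. In E14_ESC against TG2A_ESC, 7 of 10 Bap1 partners rose, where 11.2% of all genes did and the median of the longest decile was 0.40, Ogt most (0.81, SE 0.0832, adjusted p = 1.63e-05), as did Ash1l (0.71, SE 0.138, adjusted p = 0.00159), while Dpy30 fell (-0.54, SE 0.115, adjusted p = 0.00279). In TG2A_S2iL against TG2A_ESC, Ncoa6 (1.01, SE 0.116, adjusted p = 2.81e-05) and Paxip1 (0.74, SE 0.123, adjusted p = 0.000532), both found with Kmt2c and Kmt2d, rose most.

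In the PrE lines the H3K4 demethylase Kdm5b fell steeply, by 2.61 (SE 0.154, adjusted p = 5.28e-10) in EPZ_iPrE1, 2.50 (SE 0.153, adjusted p = 7.61e-10) in EPZ_iPrE2 and 3.65 (SE 0.161, adjusted p = 1.87e-11) in C57_PrESC. Smarca2 stood at 103 and 96.0 CPM in EPZ_iPrE1, against 1.40 and 2.46 CPM in TG2A_ESC, and rose by 5.68 there (SE 0.340, adjusted p = 6.64e-10), by 5.49 in EPZ_iPrE2 (SE 0.338, adjusted p = 8.46e-10) and by 4.92 in C57_PrESC (SE 0.314, adjusted p = 1.36e-09). Asxl3, at 0 to 3.93 CPM over all libraries, was called lower in EPZ_iPrE1 (-4.03, SE 1.02, adjusted p = 0.00259) and in EPZ_iPrE2 (-3.45, SE 0.933, adjusted p = 0.00414).

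The relatives of Nsd1 rose in the PrE comparisons. Nsd3 rose by 1.73 in EPZ_iPrE1 (SE 0.104, adjusted p = 6.4e-10) and Nsd2 by 1.89 in EPZ_iPrE2 (SE 0.144, adjusted p = 8.59e-09), and both were called higher in all 3 PrE comparisons. In KO10_SL against E14_ESC, by contrast, Nsd3 fell by 0.84 (SE 0.0834, adjusted p = 6.97e-07) and Nsd2 was not called (0.08, adjusted p = 0.586). Ncoa6 rose by 2.07 in C57_PrESC (SE 0.117, adjusted p = 3.57e-10). Of the 11 COMPASS subunits 7 fell in each PrE comparison, while 1 rose in EPZ_iPrE1, 2 in EPZ_iPrE2 and 3 in C57_PrESC, where 32.2 to 33.4% of all genes fell and 27.3 to 28.8% rose. Between the EPZ lines Pbrm1 was lower (-0.68, SE 0.130, adjusted p = 0.00541) and Arid1b higher (0.56, SE 0.132, adjusted p = 0.0224) in EPZ_iPrE2. The EPZ change exceeded the C57 change most in Arid1b (1.32, SE 0.178, adjusted p = 3.16e-05) and Arid2 (1.32, SE 0.233, adjusted p = 0.000343), and fell short of it most in Men1 (-1.26, SE 0.146, adjusted p = 7.88e-06) and Usp21 (-1.23, SE 0.190, adjusted p = 0.000114).

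Over the 10 group means of log2 CPM, which share libraries and depth, the members fell into patterns that are described here without a test. The closest pairs were Kdm6b and Kmt2a (Pearson r = 0.887), Kmt2a and Kmt2d (0.886), Kdm6b and Kmt2c (0.876) and Kmt2a and Kmt2c (0.839). Setd1a and Bap1 went together at 0.822, and Kmt2c and Bap1 were the most opposed at -0.57. Among 13855 genes averaging 1 CPM or more, the nearest pattern to Kdm6b was that of Epg5 (0.992), to Kmt2c that of Ago3 (0.981), to Kmt2a that of Gm38190 (0.979), to Setd1a that of Dhx30 (0.975), to Nsd1 that of Rsf1 (0.974), to Bap1 that of Actr8 (0.969), to Kmt2d that of A930004J17Rik (0.966) and to Kdm6a that of Nras (0.965). Setd1b was nearest to Gm37305 (0.938) and Kmt2b to Kifc5b (0.904), with Ezh2 second for Kmt2b at 0.9.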

How the data were processed

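The authors deposited 1 table of estimated counts per gene symbol (expected counts, fractional in part and not scaled to depth) with 22 library columns, and 27.0 to 37.2% of the counts in a library lie in symbols with fractional values. Per the submitters' processing notes, reads went through Trim Galore, STAR 2.7.6a and DESeq2 on mm10. The counting tool, annotation and strand setting were not given in the sources used here. Per the labels, the RNA is named as polyA and the kit as one for rRNA depletion.

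Here the values were rounded and fitted in R 4.3.3 with edgeR 4.0.16 (filterByExpr, TMM, quasi-likelihood test, 1 coefficient per group over all 22 libraries, 12 residual degrees of freedom), in place of the raw counts the plan assumed. Adjusted p is Benjamini-Hochberg over 17547 genes within a comparison, and a gene was called below 0.05. Changes are log2 fold changes of the first-named group over the second. CPM use TMM-scaled library sizes, with 0.5 CPM added before logs for the patterns. Exon length came from GENCODE M21 merged exons and GC content from the longest GENCODE M21 transcript, for 17180 of 17547 tested genes (97.9%). Alternatives were RLE scaling, no filter, unrounded values, a replicate block, DESeq2 1.42.0, other wild-type sets, fits of only the compared groups and leaving out each library. Added after seeing the data were offsets for trends with length and with length and GC, Setd1a summed with Gm49388 and a crossed block. On simulated counts for KO10_SL against E14_ESC, edgeR recovered 90% of 50 genes changed by 2 log2 units, 50% of 50 changed by 1 and 16% of 100 changed by 0.5, among 17547 genes. For EPZ_iPrE1 against TG2A_ESC, with 2 libraries a group, the shares were 74%, 38% and 8%. The changed genes were few and drawn from tested genes of any level, so these shares do not measure power for the members. Members and lists were chosen with earlier results of these data known. All 10 members are named, and from the lists the 2 largest rises and falls called in a comparison. Asxl3 and Smarcd1 falls with 2i in wild-type cells and the erratic Pagr1a are given no fold. Antisense genes share 4.11% of Kdm6b, 2.27% of Kmt2a, 1.35% of Kmt2c and 0.427% of Setd1a exon bases, and without a known strand setting their reads cannot be told apart. Replicates of each group differed by more than counting noise.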

Additional observations from a re-analysis of the deposited data

Results flagged for a closer look

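The Bap1 level differed between the EPZ lines, by -0.72 (log2, EPZ_iPrE2 over EPZ_iPrE1, adjusted p = 0.00173), lower in both EPZ_iPrE2 libraries. With only the 4 EPZ libraries in the fit it was -0.74 and not called (adjusted p = 0.084).

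The change from ESC to PrE differed between the E14-derived and C57 cells for 3 members. In that contrast 18.8% of all genes were higher and 16.3% lower, so the count of members is near this background. The difference was 1.12 for Kmt2a (adjusted p = 0.000419), 1.05 for Kmt2c (adjusted p = 0.00908) and -0.85 for Bap1 (adjusted p = 0.000431), on the log2 scale, EPZ change minus C57 change. With the length fit Kmt2a (0.48, adjusted p = 0.0654) and Kmt2c (0.33, adjusted p = 0.523) were not called, and with only the compared groups Kmt2c was not (adjusted p = 0.0823). The C57 groups differ in Y-linked expression and in fibroblast marker sums, whose part in these differences was not tested. The E14 baseline is TG2A_ESC alone, and the contrast was not run with E14_ESC, which was higher than TG2A_ESC for Kmt2a (0.98) and Kmt2c (0.74).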

How the results depend on the processing

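Of 58 called member changes, all 58 kept their direction under every alternative run, 31 stayed called throughout and 27 lost the call in at least 1, which made 81 losses over 769 pairs of change and alternative. The cause of a loss was not tested unless its construction shows it.

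With no filter, 1 member was called in KO10_SL_rescued against E14_ESC (389 genes, against 19 with the filter) and 1 in the difference between media (923 genes, against 343), and 1143 genes in EPZ_iPrE2 against EPZ_iPrE1, against 686. DESeq2 called 184, 992 and 1063 genes in these 3. With TG2A_ESC as wild type, 4863 genes were called in the knockout, against 8524, and 3798 genes and 4 members in the rescued cells. With E14_ESC as wild type the difference between media had 4557 genes and 6 members. Fits of only the compared groups called 5383 genes and 0 members in C57_PrESC, 28 and 0 between EPZ lines, 551 genes in the rescued cells against E14_ESC, 9607 genes and 8 members in KO10_S2iL against TG2A_S2iL, 10037 genes in KO10_S2iL against KO10_SL, 3041 in the EPZ change minus the C57 change, and 1795 genes and 2 members in the difference between media.

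Offsets for length, and for length and GC, called 5 and 5 members in C57_PrESC, where they called 10698 and 10732 genes. They called 2 and 1 members in KO10_S2iL against KO10_SL (5517 and 5553 genes), and 1 and 1 in E14_ESC against TG2A_ESC (2915 and 2944 genes). Length alone called 5, all lower, in the EPZ change minus the C57 change, where 2563 genes were higher and 3325 lower. Length offsets moved the median of all genes from -0.09 to 0.05 in C57_PrESC, from -0.11 to 0.02 after rescue and from 0.01 to -0.10 in KO10_S2iL against TG2A_S2iL.

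The replicate numbers were not treated as pairs. Same-numbered libraries correlated at 0.089, -0.012 and 0.051 between KO10_SL and E14_ESC, the one comparison with 3 pairs. With 2 pairs the values were 0.308 in C57_PrESC against C57_ESC, -0.477 between the EPZ lines and -0.066 to 0.052 elsewhere. A replicate block called 6 genes in KO10_SL_rescued against E14_ESC and 165 in the difference between media, and among called members it ended those of Setd1b after rescue and Kdm6b between wild-type sets (adjusted p = 0.0575). It added Setd1a in C57_PrESC (0.0446), Kmt2d in TG2A_S2iL against TG2A_ESC (0.0379), and Kdm6a (0.0345) and Setd1a (0.0243) between wild-type sets. A crossed block between the EPZ lines called 584 genes and 1 member, where the numbered block called 582 and 1.

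Leaving out 1 library gave 0 to 3 members and 2146 to 3621 genes in TG2A_S2iL against TG2A_ESC, and 2 to 4 and 1762 to 4178 in E14_ESC against TG2A_ESC. It gave 3 to 6 and 3958 to 5569 in KO10_S2iL against KO10_SL, and 3 to 4 and 2816 to 2992 in KO10_S2iL against TG2A_S2iL. The ranges were 3 to 5 members and 9679 to 10191 genes in C57_PrESC, and 3 to 6 and 5157 to 6352 in the EPZ change minus the C57 change. Genes called ran from 391 to 421 between EPZ lines, from 1 to 20 in KO10_SL_rescued against E14_ESC and from 58 to 407 in the difference between media. In C57_PrESC the uncalled changes of Kmt2a (-0.0114 to 0.33) and Bap1 (-0.081 to 0.31) changed sign, Kmt2a without C57_ESC replicate 1 and Bap1 without C57_ESC replicate 2.

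The uncalled differences near 0 also changed sign. In the EPZ change minus the C57 change, Kdm6b ran from -0.44 to 0.37 over the fits without 1 library and was -0.28 with length and -0.0499 with length and GC, and Nsd1 ran from -0.185 to 0.0809. Kdm6a in EPZ_iPrE2 ran from -0.0563 to 0.0208.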
